A study of Mus musculus with 6 samples.

Results

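The genes described here encode the motors, kinases, centromere proteins and spindle proteins of mitosis, together with the transport kinesins that share their family name. They were taken by gene name from the array annotation: every probe named Kif, Cenp, Aurk, Bub1, Bub3, Plk, Ncap or Nusap, and 14 further mitotic genes such as Ccnb1, Tpx2 and Mki67. This gave 134 of the 41174 probes on the array, for 72 gene names. Of these 46 were classed here as mitotic, 15 as transport kinesins and 11 as others. Kif2c was classed as mitotic, while Kif2a and Kif2b, which share its name stem, were placed among the others. The mitotic counts below thus leave out Kif2a, a microtubule depolymerase like Kif2c, which was not called. No probe carried an Ncap name.

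RNA was measured in primary cultures of C4HD, a hormone-dependent ductal mammary tumour that arose in female BALB/c mice given medroxyprogesterone acetate and that is passed from mouse to mouse by transplantation. The pre-miR-16 group was 3 cultures given pre-miR-16, the precursor of a microRNA, at 30 nM. The pre-miR-Control group was 3 cultures transfected with 30 nM of a scrambled precursor that yields no known mammalian microRNA. All 6 cultures came from tumours grown under medroxyprogesterone acetate, were enriched for epithelial cells by sedimentation, were plated in steroid-stripped serum and gave RNA after 48 h of transfection. The enrichment is a physical separation, so other cells of the tumour can remain. The labels call the 3 cultures of a group biological replicates, and the number of mice behind them was not given in the sources used here.

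Cells enter mitosis when cyclins A and B activate the kinase Cdk1, whose activity, with that of the Polo and Aurora kinases, drives chromosome condensation and assembly of the spindle. Motors of the kinesin family then slide microtubules, move chromosomes or build the midzone at which the cell divides, while the checkpoint proteins Bub1, Bub1b and Ttk hold the cell until every centromere is attached. Most of these genes are transcribed in a wave that peaks in G2 and M phase, so their level in a bulk culture is known to track the share of dividing cells. Transport kinesins share the motor domain but carry vesicles and organelles, and they form a comparison within the same gene family.

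The transfected precursor is processed to the mature miR-16, shown here with its seed (bases 2 to 8, the part that pairs with target messages) in capitals. Its sequence and those of miR-15a and miR-15b, which carry the same seed, were taken from RefSeq (GRCm38.p6). In that build the miR-16 sequence lies at chr3:69009918-69009939, plus strand, and at chr14:61631936-61631957, minus strand.
miR-16-5p: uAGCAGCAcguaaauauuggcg
miR-15a-5p: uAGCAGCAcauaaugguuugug
miR-15b-5p: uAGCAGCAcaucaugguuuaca

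Promoters of many G2/M genes carry CCAAT boxes, bound by the factor NF-Y, and the cell cycle homology region, whose core reads TTTGAA or TTCGAA. Promoters (250 bases before to 50 after the start, RefSeq, GRCm38.p6) were found for 62 of the 72 genes, and both motifs were searched on both strands. Among 41 mitotic genes with a promoter, 30 (73.2%) held CCAAT, 25 (61.0%) held TTTGAA or TTCGAA and 22 (53.7%) held both. Among 11 transport kinesins the counts were 3 (27.3%), 1 (9.09%) and 0, and over 27025 genes the shares were 41.1%, 21.7% and 8.61%. These matches describe letters in a window and are not evidence of binding.

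Promoters of 3 mitotic genes whose transcripts are described below and of the transport kinesin with the largest change are shown 5′ to 3′, with both motifs and their reverse complements in capitals. They lie at chr7:122159185-122159484, plus strand (Plk1), chrX:100625815-100626114, plus strand (Kif4), chr11:99024140-99024439, minus strand (Top2a) and chr1:93101825-93102124, minus strand (Kif1a). Top2a holds 6 CCAAT boxes and 4 copies of the other motif in its 300 bases. Plk1 and Kif4 hold both motifs. Not every mitotic promoter does: that of Ccnb1, not printed, holds 2 CCAAT boxes and no TTTGAA or TTCGAA. Of 2 Kif1a promoters the first, printed here, holds neither, and the second holds 1 copy of TTTGAA and no CCAAT. The counts above include a gene where any of its promoters holds the motif. Kif1a is thus the 1 transport kinesin counted with TTTGAA or TTCGAA.
Plk1: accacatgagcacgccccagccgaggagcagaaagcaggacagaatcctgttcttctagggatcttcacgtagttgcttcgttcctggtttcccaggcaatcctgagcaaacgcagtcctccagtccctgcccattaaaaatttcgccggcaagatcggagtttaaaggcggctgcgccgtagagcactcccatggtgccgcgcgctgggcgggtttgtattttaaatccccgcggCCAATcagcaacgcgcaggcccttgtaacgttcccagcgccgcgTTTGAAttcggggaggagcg
Kif4: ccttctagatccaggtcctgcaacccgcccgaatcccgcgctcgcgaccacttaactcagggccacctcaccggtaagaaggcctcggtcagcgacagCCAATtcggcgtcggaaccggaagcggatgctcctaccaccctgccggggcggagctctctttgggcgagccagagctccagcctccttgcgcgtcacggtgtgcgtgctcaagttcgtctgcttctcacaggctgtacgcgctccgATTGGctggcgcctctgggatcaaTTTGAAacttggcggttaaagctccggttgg
Top2a: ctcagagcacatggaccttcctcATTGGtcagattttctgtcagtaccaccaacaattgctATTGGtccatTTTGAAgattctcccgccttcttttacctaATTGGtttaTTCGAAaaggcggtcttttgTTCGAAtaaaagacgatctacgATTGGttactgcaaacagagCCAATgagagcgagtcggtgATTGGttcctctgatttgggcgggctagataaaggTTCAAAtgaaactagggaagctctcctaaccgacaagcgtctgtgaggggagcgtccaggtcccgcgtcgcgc
Kif1a: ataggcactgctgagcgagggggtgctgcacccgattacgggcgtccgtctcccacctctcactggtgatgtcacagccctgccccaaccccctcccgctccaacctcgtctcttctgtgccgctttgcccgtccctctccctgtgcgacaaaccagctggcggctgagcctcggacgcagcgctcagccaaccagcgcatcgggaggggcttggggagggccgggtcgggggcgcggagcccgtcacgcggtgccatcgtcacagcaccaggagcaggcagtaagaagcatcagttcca

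All levels below are log2 signals of single-colour Agilent arrays, each relative to the 75th percentile of its own array, so that 0 is that percentile and a step of 1 is a doubling of signal. Each gene is represented by its brightest probe, and changes are pre-miR-16 minus pre-miR-Control on the log2 scale with the standard error of the fit. A gene rose or fell where limma gave a Benjamini-Hochberg adjusted p under 0.05 over the 16702 genes tested. Between 57.2% and 64.0% of spots per array were well above background. The precision is limited by having 3 arrays per group. Slide 1 held pre-miR-16 replicate 1 with control 1, slide 2 held pre-miR-16 replicate 2 with controls 2 and 3, and pre-miR-16 replicate 3 was alone on slide 3. A fit with slide as a block therefore takes no information on the change from pre-miR-16 replicate 3. Results given for that block rest on slides 1 and 2. The submitters' table of processed values and the scanner files disagree on these numbers: its column for pre-miR-16 replicate 1 ranks probes more like the scanner file of replicate 2, and the reverse (Spearman 0.970 and 0.965), than like its own (0.946 and 0.943). The number of the array that reads low below is therefore that of its scanner file, and which culture it came from is not settled.

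Markers of other cell types differed between the groups. The summed linear level of 12 fibroblast markers was 589 to 733 on pre-miR-16 arrays and 393 to 462 on control arrays. Of the 12, 11 rose, against 15.95% of all genes tested. By far the brightest of them, Dcn (decorin), differed by -0.070 and was not called, whereas the median change of the 12 was 3.87 and Col3a1 and Fbn1 rose 21.3-fold and 21.4-fold. The sum of 13 macrophage and leukocyte markers was 187 to 251 on pre-miR-16 arrays and 9.95 to 14.4 on control arrays. Of the 13, 10 rose, against 15.95% of all genes tested. By far the brightest was Lyz2, at 7.59, 7.80 and 7.40 in pre-miR-16 cultures, which rose 29.1-fold. Csf1r (-0.51), Cd3e (-0.081) and Aif1 (0.081) were not called. Ptprc, the pan-leukocyte antigen, was not well above background on any control. The summed level of 10 luminal epithelial markers was 597 to 630 on pre-miR-16 arrays and 1002 to 1139 on control arrays. Of these markers 8 of 10 fell (against 33.1% of all genes), or 2 of 10 with arrays scaled on spike-ins (against 6.23%). Their part in the results below was not tested. In bulk RNA, fewer cells of a type and less RNA per cell cannot be told apart.

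Of the 72 genes, 64 passed the filter for signal above background. Among these 18 rose, against 15.95% of all genes tested, and 12 fell, against 33.1% of all genes (49.1% in either direction). The 42 mitotic genes that were tested supplied 14 of the rises (33.3% of them) and 4 of the falls (9.52%). Their median change was 0.99, or 0.72 under normexp background correction, 0.59 with slide as a block and 1.54 without pre-miR-16 replicate 2, while the median over all genes was -0.20. The 14 transport kinesins had a median of -0.093, with 3 risen (21.4%) and 4 fallen (28.6%), shares near those of all genes. Spike-in RNA read 3.28 to 3.63 above the 75th percentile on pre-miR-16 arrays and 3.80 to 3.95 on control arrays. Arrays scaled on it instead of the 75th percentile shift the median of all genes by 0.38, and 25 mitotic genes then rose and 17 were not called, against a background of 22.0% risen and 6.23% fallen. Of the 12 falls among all members, Kif13b and Aurkc were those still called on that scale.

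The rise of mitotic genes was uneven across the pre-miR-16 cultures. Relative to each gene's control mean, the median of the 42 mitotic genes was 1.49 on pre-miR-16 replicate 1, 0.070 on replicate 2 and 1.48 on replicate 3. On replicate 1, 34 of 42 lay above all 3 controls, against 29.8% of all genes; on replicate 2, 14 of 42 did, against 25.1%; on replicate 3, 33 of 42 did, against 32.0%. Replicate 2 was the lowest pre-miR-16 array for 39 of 42, against 40.7% of all genes. All 3 pre-miR-16 arrays exceeded all 3 controls for 14 genes, against 19.0% of all genes. Within slide 1 the median difference was 1.39, and within slide 2 it was 0.055. On the same pre-miR-16 replicates 1, 2 and 3, the median fibroblast marker stood 3.90, 4.19 and 3.72 above its control mean and the median leukocyte marker 3.85, 4.34 and 3.82, so replicate 2 was not low in those.

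Without pre-miR-16 replicate 2, 31 mitotic genes rose (73.8%, against 20.0% of all genes), comprising the 14 called with it and 17 more. Over all members the rises then numbered 35, and they numbered 10 without pre-miR-16 replicate 1, replicate 3 or pre-miR-Control replicate 3. Falls numbered 7 without pre-miR-Control replicate 2. With slide as a block, which sets pre-miR-16 replicate 3 aside, 10 mitotic genes rose (23.8%, against 12.5% of all genes), 9 of them among the 14. That block ended 13 calls over all members, those of Aurkb, Bub1, Bub1b, Nek2, Nusap1, Kif9 and Kif21b among the rises and of Cenpj, Cenpo, Cenpq, Kif16b, Aurkc and Aurkaip1 among the falls. Of the 14, 7 were called whichever array was left out, namely Ccnb1, Bub1b, Kif4, Kif20a, Cenpe, Tpx2 and Mki67. The other 7, Ccna2, Aurkb, Bub1, Nek2, Kif23, Top2a and Nusap1, kept it without pre-miR-16 replicate 2 and lost it without at least 1 of the other arrays. Of the 4 mitotic falls, Kif18a was called whichever array was left out, Cenpo lost the call without 1 array (pre-miR-Control replicate 2), Cenpq without any 1 of the 3 controls, and Cenpj without any array except pre-miR-16 replicate 2. Among the other falls, Aurkaip1 lost it without any array except pre-miR-16 replicate 1, and Kif16b without pre-miR-16 replicate 1 or pre-miR-Control replicate 2 or 3.

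**Figure D1:**
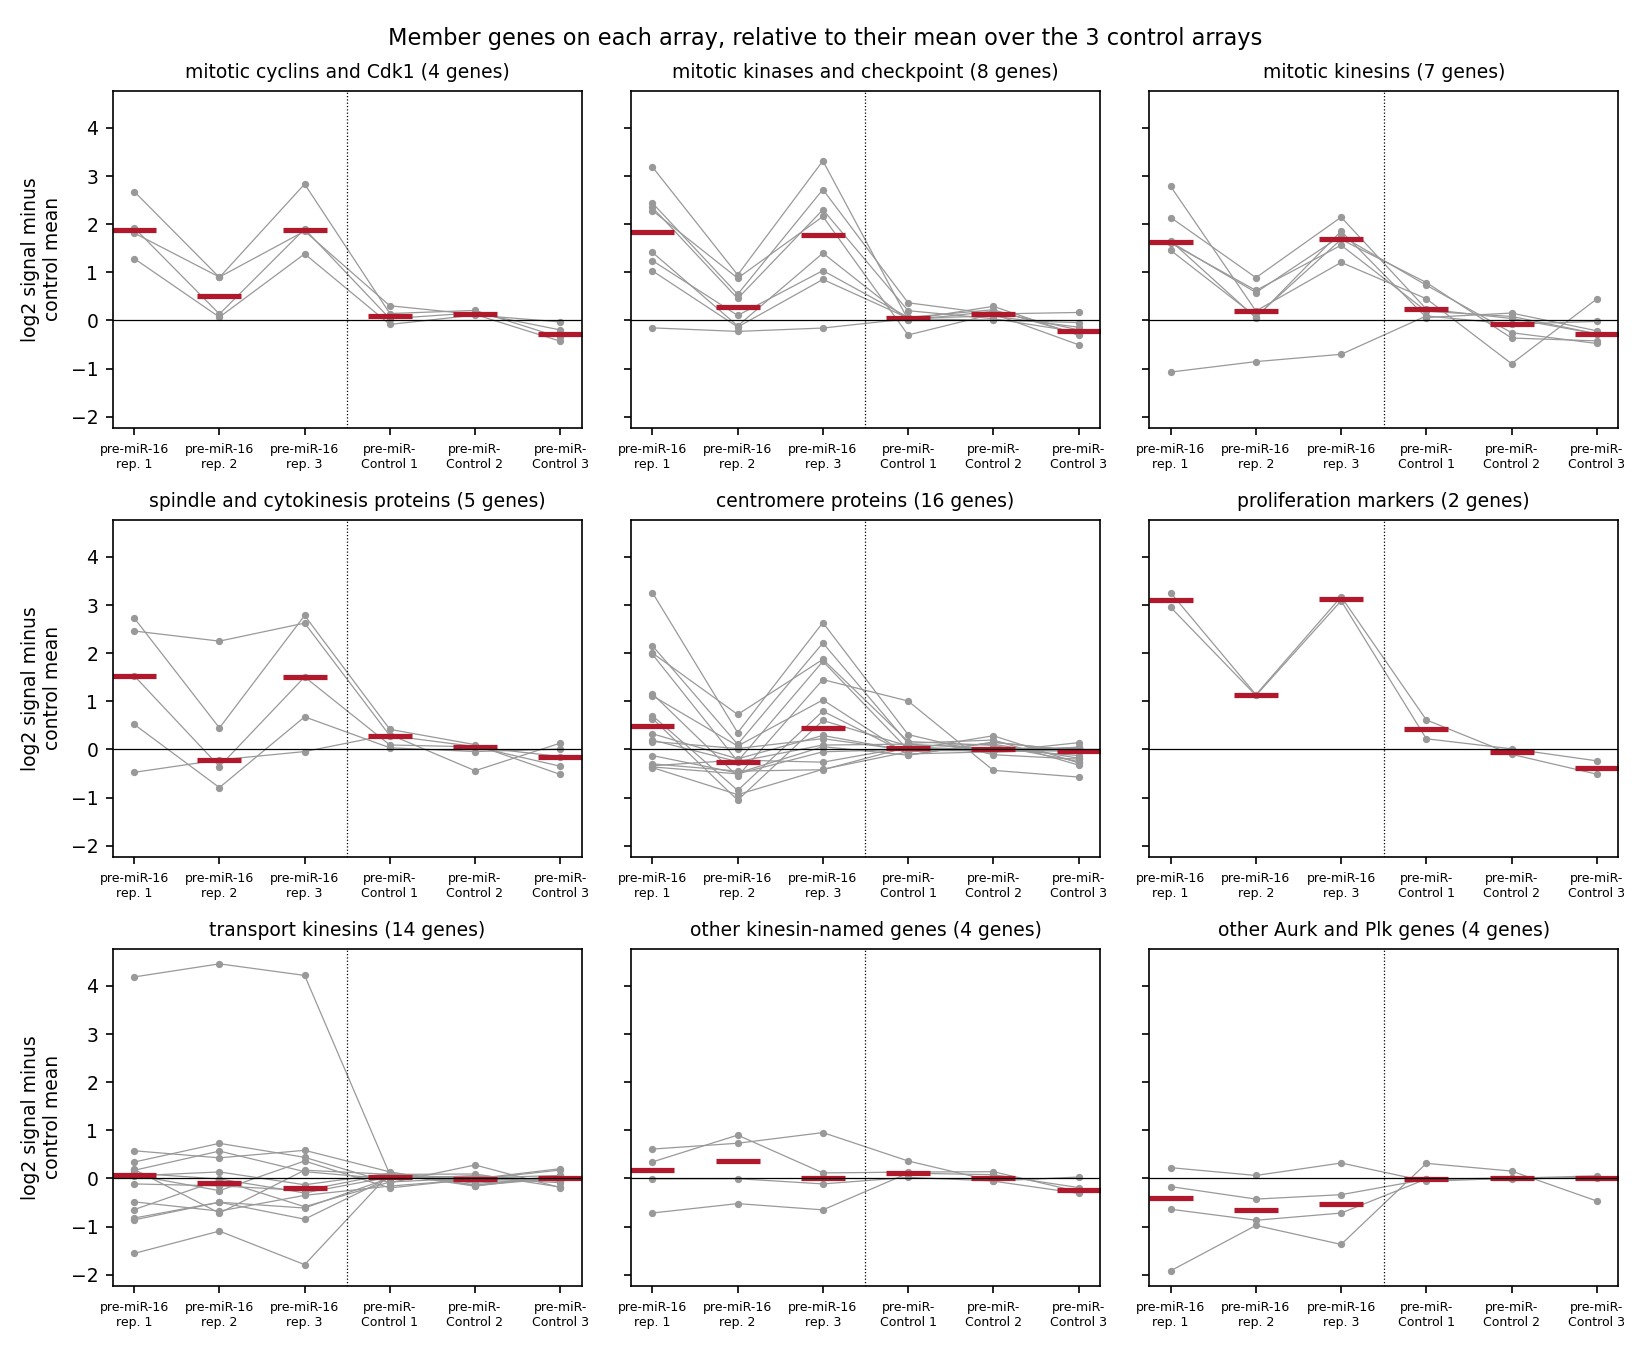
Log2 signal of each tested member gene on each array (grey points joined by gene) minus its mean over the 3 control arrays, by class, with the class median on each array as a red bar. In the mitotic classes pre-miR-16 replicate 2 sits below replicates 1 and 3 (39 of 42 genes), and among transport kinesins Kif1a stands at 4.19 to 4.46 on all 3.

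The mitotic cyclins and their kinase were higher on pre-miR-16 replicates 1 and 3. Ccna2, cyclin A2, which drives S phase and entry into mitosis, stood at -0.18, -1.96 and -0.022 in the 3 pre-miR-16 cultures and at -2.71, -2.65 and -3.21 in the 3 control cultures. The groups did not overlap, and Ccna2 rose by 2.14 ± 0.52 (4.39-fold, adjusted p = 0.0170), a call lost without pre-miR-16 replicate 1 or pre-miR-Control replicate 3. Ccnb1, cyclin B1, the activator of Cdk1 at mitotic entry, stood at -2.04, -2.95 and -2.00 in pre-miR-16 cultures and at -3.55, -3.73 and -4.28 in controls. It also separated the groups and rose by 1.52 ± 0.32 (adjusted p = 0.00935), or 0.78 under normexp correction. All 3 of its probes rose.

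Ccnb2, cyclin B2, stood at 2.21, 0.42 and 2.18 in pre-miR-16 cultures and at 0.32, 0.44 and 0.087 in controls. Its replicate 2 lay inside the control range, and the difference of 1.32 ± 0.49 was not called (adjusted p = 0.0654). Cdk1, which the array annotation names Cdc2a, stood at 0.19, -1.03 and 0.29 in pre-miR-16 cultures and at -1.18, -0.99 and -1.13 in controls, a difference of 0.91 ± 0.35 (adjusted p = 0.0728). Here too replicates 1 and 3 stood above every control while replicate 2 did not. For the 4 genes the median difference was 1.70 within slide 1 and 0.56 within slide 2.

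**Figure D2:**
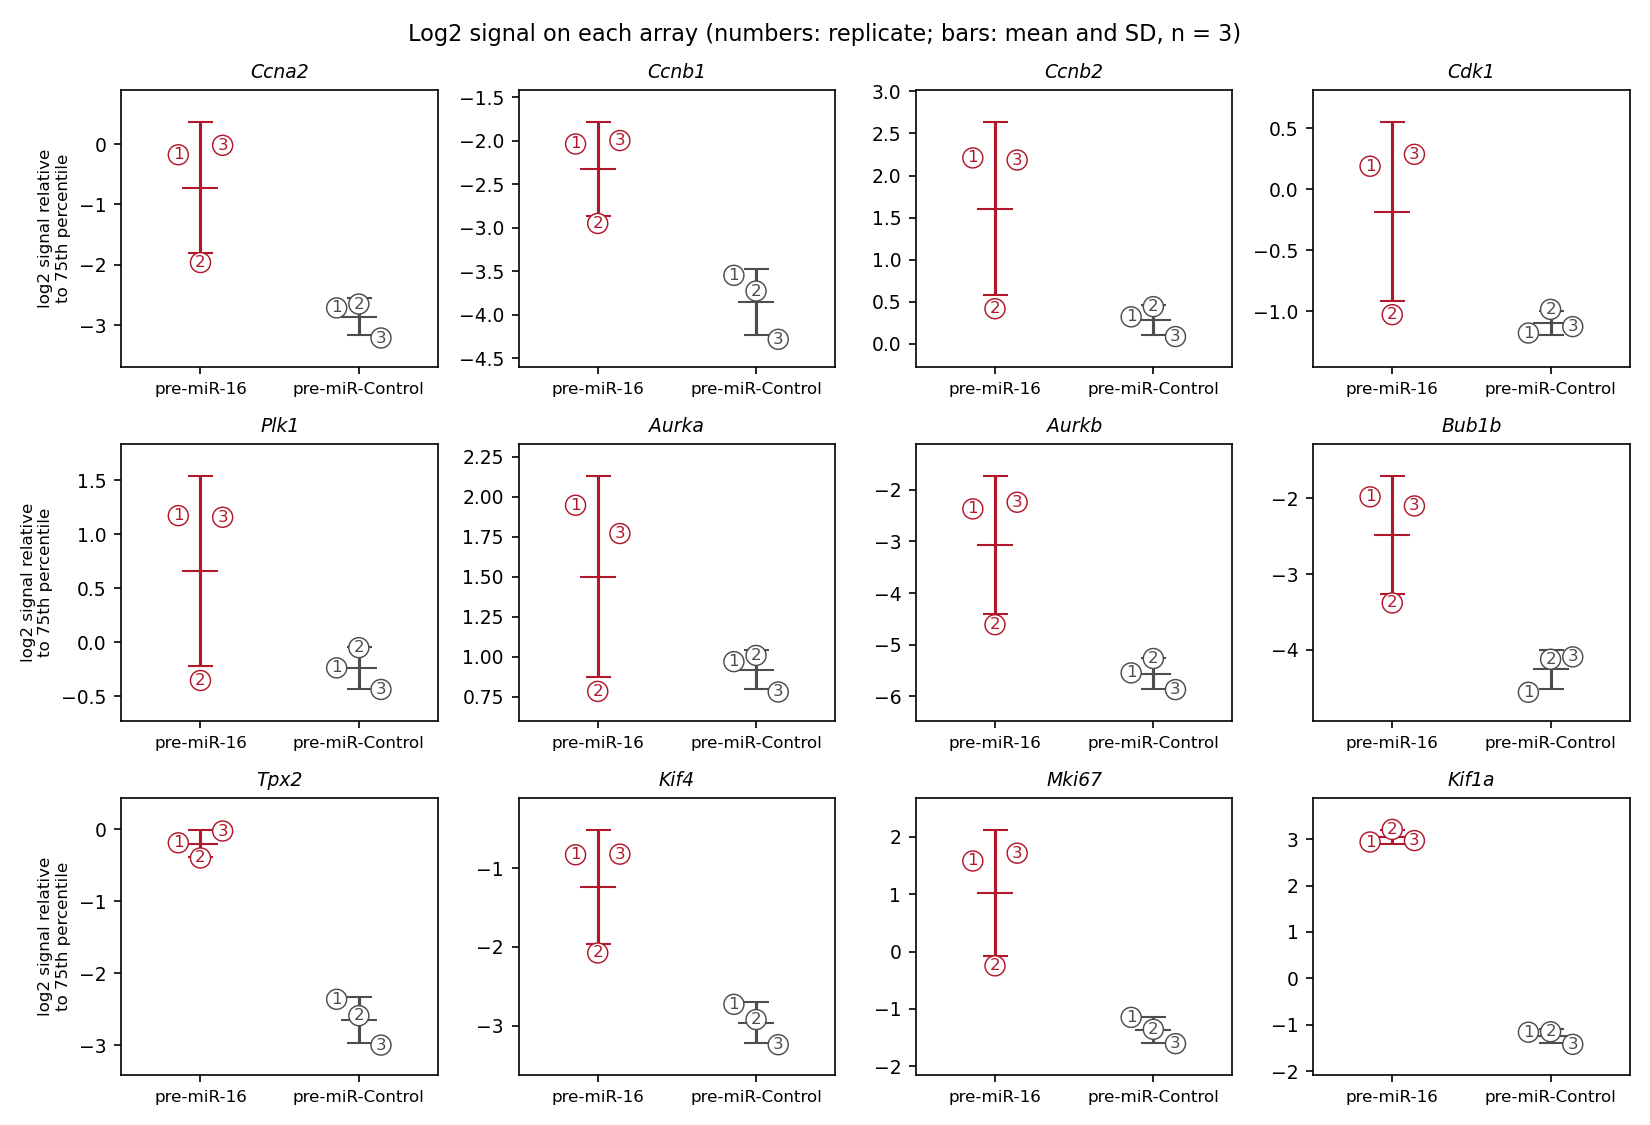
Log2 signal relative to the array's 75th percentile for 12 member genes, with each culture shown by its replicate number and the mean and SD of each group (n = 3) as bars; pre-miR-16 is left of pre-miR-Control in every panel. Replicate 2 of pre-miR-16 lies near the controls for Ccnb2, Cdk1, Plk1 and Aurka, and beside replicates 1 and 3 for Tpx2 and Kif1a.

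Of the 8 tested mitotic kinases and checkpoint genes, 4 rose (50%, against 15.95% of all genes) and the other 4 were not called. Their median change was 1.30. Without pre-miR-16 replicate 2, 7 rose; 1 rose without pre-miR-16 replicate 1 or 3 or pre-miR-Control replicate 1 or 3, and 2 without pre-miR-Control replicate 2. Aurkb, Aurora B, the kinase of the chromosomal passenger complex that corrects attachments, stood at -2.37, -4.61 and -2.24 in pre-miR-16 cultures and at -5.54, -5.27 and -5.87 in controls. It was not well above background on any control and passed the filter through the pre-miR-16 arrays alone. Its rise (limma adjusted p = 0.0198) is given as at least 4.78-fold in the main fit. That figure sets the mean of the pre-miR-16 cultures against a floor on each control array. The floor is the higher of the gene's own signal and the dimmest signal well above background. The bound depends on the background treatment, and under normexp correction the difference was 0.91. With probes above background on all 6 arrays, 3 of 7 genes of this class rose. Bub1, a checkpoint kinase at the kinetochore, stood at -1.65, -3.55 and -1.37 in pre-miR-16 cultures and at -3.72, -3.95 and -4.59 in controls, and rose by 1.90 ± 0.59 (adjusted p = 0.0380). Bub1b, the checkpoint protein BubR1, stood at -1.98, -3.38 and -2.10 in pre-miR-16 cultures and at -4.56, -4.13 and -4.09 in controls, and rose by 1.77 ± 0.39 (adjusted p = 0.0112).

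For these 3 genes every pre-miR-16 culture exceeded every control, with replicate 2 nearest to them. Nek2, a kinase that parts the centrosomes, stood at -0.80, -2.69 and -0.85 in pre-miR-16 cultures and at -2.94, -3.11 and -3.39 in controls, and rose by 1.70 ± 0.52 (adjusted p = 0.0349). The 4 rises are smaller under normexp correction: 0.91 for Aurkb, 1.05 for Bub1, 0.80 for Bub1b and 1.16 for Nek2. With slide as a block none of the 4 kept its call, with adjusted p of 0.0660, 0.0665, 0.0654 and 0.0779 in the same order. That fit draws on the low replicate 2 and on replicate 1, but not on replicate 3. The lost calls therefore cannot be read as a slide effect.

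Plk1, the Polo kinase of mitotic entry and cytokinesis, stood at 1.17, -0.35 and 1.16 in pre-miR-16 cultures and at -0.24, -0.049 and -0.44 in controls. Aurka, Aurora A, which builds the spindle poles, stood at 1.95, 0.78 and 1.77 in pre-miR-16 cultures and at 0.97, 1.01 and 0.78 in controls. Cdc20, which activates the anaphase-promoting complex, stood at 1.79, 0.65 and 1.58 in pre-miR-16 cultures and at 0.61, 0.77 and 0.26 in controls. For all 3, replicates 1 and 3 lay above the controls and replicate 2 lay within their range. The differences of 0.90 ± 0.42, 0.58 ± 0.31 and 0.79 ± 0.31 were not called (adjusted p of 0.124, 0.160 and 0.0797). Bub3, the partner of Bub1 and Bub1b, differed by -0.18 ± 0.082 (adjusted p = 0.115), or by -0.34 and called with the mean of its probes (adjusted p = 0.0325).

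Ttk, the checkpoint kinase Mps1, was not tested. Its probe cleared background on 1 of the 3 pre-miR-16 arrays and on 0 of the 3 controls. Plk4, which starts centriole duplication, was likewise not tested, and its 3 probes differed. The first was above background on pre-miR-16 replicates 1 and 3 and on 0 of 3 controls, another on 1 of 3 pre-miR-16 arrays and on 2 of 3 controls, and the last on none of the 6.

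Among the 7 tested mitotic kinesins 3 rose (42.9%, against 15.95% of all genes) and 1 fell (14.3%, against 33.1%). Their median change was 1.26 (0.44 under normexp), and 6 rose without pre-miR-16 replicate 2 (against 20.0% of all genes). Kif4, a chromosome-bound motor that works with Prc1 at the midzone, stood at -0.83, -2.08 and -0.82 in pre-miR-16 cultures and at -2.73, -2.92 and -3.24 in controls. Kif20a, which brings Aurora B to the midzone, stood at 0.67, -0.31 and 0.63 in pre-miR-16 cultures and at -0.74, -0.85 and -1.21 in controls. In both genes the groups did not overlap, and they rose by 1.72 ± 0.36 (adjusted p = 0.00995) and 1.26 ± 0.29 (adjusted p = 0.0136).

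Kif23, the motor of the centralspindlin complex in cytokinesis, stood at -2.77, -3.82 and -2.64 in pre-miR-16 cultures and at -3.67, -4.65 and -4.88 in controls. Replicate 2 lay below control 1, so the groups overlapped. Its rise of 1.32 ± 0.43 (adjusted p = 0.0436) was 0.44 and not called under normexp correction (adjusted p = 0.0721). Kif18a, a motor of kinesin-8 that trims kinetochore microtubules, moved the other way: it stood at -3.31, -3.09 and -2.94 in pre-miR-16 cultures and at -2.14, -2.31 and -2.25 in controls. Every pre-miR-16 culture lay below every control, and Kif18a fell by 0.88 (adjusted p = 0.00221); scaled on spike-ins the difference was -0.49 and not called (adjusted p = 0.110).

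The other 3 tested mitotic kinesins were not called. Kif11 (Eg5), which pushes the spindle poles apart, differed by 1.40 ± 0.71 (adjusted p = 0.148) and was above background on 2 of 3 controls. Kif22, a chromosome-arm motor, differed by 1.19 ± 0.47 (adjusted p = 0.0802), and Kif2c, a microtubule depolymerase at the centromere, by 1.07 ± 0.52 (adjusted p = 0.132). Kif14, a cytokinesis motor, and Kif15, a motor that helps keep the spindle bipolar, were not tested. The brightest probe of each was above background on pre-miR-16 replicates 1 and 3 and on 0 of 3 controls.

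Of 5 spindle and cytokinesis genes 2 rose (40%, against 15.95% of all genes), or 4 without pre-miR-16 replicate 2 and 1 without any other array. Their median change was 0.89, or 1.52 without pre-miR-16 replicate 2, 0.58 without replicate 1 and 0.44 with slide as a block. Tpx2, which activates Aurora A and nucleates spindle microtubules, stood at -0.19, -0.40 and -0.022 in pre-miR-16 cultures and at -2.36, -2.59 and -3.00 in controls. Replicate 2 stood 2.25 above the control mean, beside 2.46 for replicate 1 and 2.62 for replicate 3. The rise of 2.45 ± 0.19 (5.45-fold, adjusted p = 2.19e-04) had the smallest adjusted p of the mitotic genes. Its probe lies at chr2:152634597-152634656 (mm7, the build of the array annotation). Nusap1, which bundles spindle microtubules, stood at -1.17, -3.45 and -1.11 in pre-miR-16 cultures and at -3.48, -3.80 and -4.41 in controls. Its replicate 2 was level with control 1, and the rise of 1.99 ± 0.66 (adjusted p = 0.0469) was not called once slide was fitted as a block (adjusted p = 0.0814).

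Prc1, the midzone crosslinker, stood at 1.39, -0.49 and 1.37 in pre-miR-16 cultures and at -0.046, -0.085 and -0.29 in controls, with replicate 2 the lowest of the 6 arrays. Its difference of 0.89 ± 0.51 was not called (adjusted p = 0.190). Ect2, which activates RhoA at the division plane, differed by 0.14 ± 0.38 at its brightest probe (adjusted p = 0.787). Its difference ran from -1.31 to 0.60 over 21 alternative settings, and a second probe, described below, fell. Anln (anillin), a scaffold of the contractile ring, stood at -2.96, -2.70 and -2.52 in pre-miR-16 cultures and at -2.17, -2.92 and -2.35 in controls, and the overlapping groups differed by -0.24 ± 0.22 (adjusted p = 0.390).

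Of the 16 centromere genes 1 rose (6.25%, against 15.95% of all genes), 3 fell (18.75%, against 33.1%) and 12 were not called. Both shares were below those of all genes, and the median change was 0.14, against -0.20. The counts rested on single arrays: without pre-miR-16 replicate 2, 8 rose (against 20.0% of all genes) and 3 fell (against 34.8%), with a median of 0.47. The median was 0.011 without replicate 1 and 0.018 without replicate 3. None fell without pre-miR-Control replicate 2. With slide as a block 1 rose and 1 fell (median -0.022), against 12.5% and 23.4% of all genes. Scaled on spike-ins 4 rose and 0 fell (median 0.52), against 22.0% and 6.23%. Cenpe, the kinesin motor at the kinetochore that moves chromosomes to the spindle equator, stood at 0.71, -0.56 and 0.58 in pre-miR-16 cultures and at -1.12, -1.20 and -1.54 in controls. The groups did not overlap and it rose by 1.53 ± 0.35 (adjusted p = 0.0131). The 3 that fell were Cenpo and Cenpq, of the inner kinetochore, and Cenpj, a centriole protein that carries the name.

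Cenpq stood at 1.46, 0.90 and 1.42 in pre-miR-16 cultures and at 1.79, 1.86 and 1.86 in controls, a change of -0.58 ± 0.17 (adjusted p = 0.0295). Cenpo stood at -0.27, -0.42 and -0.40 in pre-miR-16 cultures and at 0.075, 0.018 and -0.017 in controls, a change of -0.39 ± 0.088 (adjusted p = 0.0129). Cenpj stood at -0.43, -0.32 and -0.36 in pre-miR-16 cultures and at -0.044, -0.15 and -0.092 in controls, a change of -0.27 ± 0.086 (adjusted p = 0.0387). In all 3 every pre-miR-16 culture lay below every control, but scaled on spike-ins the differences were -0.19, -0.0073 and 0.11 and not called, Cenpj turning positive.

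Cenpm, of the inner kinetochore, had the largest difference among the 12 that were not called, at -2.28, -5.19 and -2.90 in pre-miR-16 cultures and -5.22, -5.64 and -5.73 in controls (adjusted p = 0.0543). Replicates 1 and 3 stood far above the controls and replicate 2 just above them, and only 1 of 3 controls was well above background. Cenpf, a large kinetochore protein of G2, differed by 1.49 ± 0.57 (adjusted p = 0.0735), Cenpk by 1.19 ± 0.59 (adjusted p = 0.144) and Cenpa, the histone H3 variant of centromeres, by 0.74 ± 0.29 (adjusted p = 0.0745). Incenp, the scaffold of the passenger complex, differed by 0.011 ± 0.14 (adjusted p = 0.955). The other 7 lay between -0.31 and 0.68.

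Both proliferation markers rose, against 15.95% of all genes tested. Mki67 (Ki-67), which coats mitotic chromosomes, stood at 1.58, -0.25 and 1.72 in pre-miR-16 cultures and at -1.15, -1.36 and -1.61 in controls, a change of 2.39 ± 0.52 (5.23-fold, adjusted p = 0.0115). Top2a, the topoisomerase that untangles sister chromatids and whose promoter is printed above, stood at -1.21, -3.33 and -1.29 in pre-miR-16 cultures and at -3.85, -4.57 and -4.98 in controls, a change of 2.52 ± 0.62 (adjusted p = 0.0170), or 1.40 under normexp. In both genes all pre-miR-16 cultures exceeded all controls, with replicate 2 between replicates 1 and 3 and the controls.

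**Figure D3:**
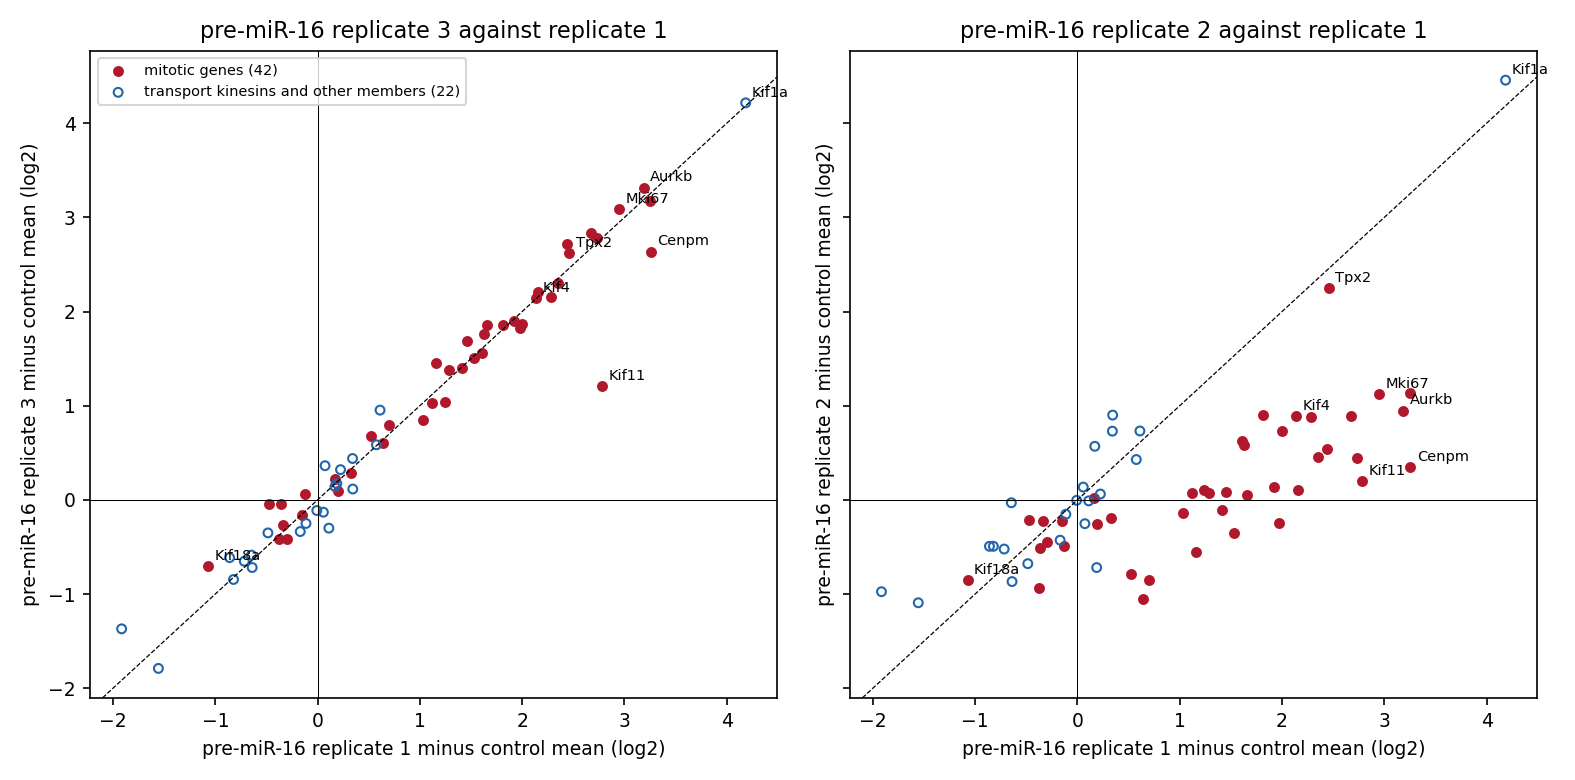
Difference of each member gene from its control mean (log2) on pre-miR-16 replicate 3 (left) and replicate 2 (right) against replicate 1, with the dashed line marking equality. On the left most mitotic genes lie along the line, with Kif11 below it; on the right most lie below it, with Tpx2 at 2.25 on replicate 2.

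The transport kinesins showed no common direction, but included the largest change of all 64 tested members. Kif1a, known as the motor of synaptic vesicle precursors in neurons, stood at 2.94, 3.21 and 2.97 in pre-miR-16 cultures and at -1.16, -1.15 and -1.42 in controls. It rose by 4.29 ± 0.13 (19.5-fold, adjusted p = 1.19e-05), with the 3 pre-miR-16 cultures close together, replicate 2 highest. Its probe lies at chr1:92923344-92923403 (mm7), and a second probe rose by 3.61 ± 0.53. Kif5c, a heavy chain of conventional kinesin, stood at 0.63, 0.48 and 0.64 in pre-miR-16 cultures and at 0.19, -0.10 and 0.061 in controls, and rose by 0.53 ± 0.11 (adjusted p = 0.00917). Its second probe differed by -0.011, and with the mean of both probes Kif5c was at 0.26 and not called (adjusted p = 0.258). Kif21b, a motor that limits microtubule growth, stood at 0.056, 0.44 and 0.15 in pre-miR-16 cultures and at -0.38, -0.0056 and -0.48 in controls, and rose by 0.50 ± 0.17 (adjusted p = 0.0465). It lost the call when any array except pre-miR-Control replicate 2 was left out.

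The 4 transport kinesins that fell did so on all 3 pre-miR-16 cultures. Kif13b, of the kinesin-3 group, stood at -4.62, -4.16 and -4.85 in pre-miR-16 cultures and at -2.96, -3.16 and -3.07 in controls, a change of -1.48 ± 0.19 (adjusted p = 0.00158), or -0.76 under normexp. Kif3a, the motor of cilium assembly, stood at 1.00, 1.33 and 0.98 in pre-miR-16 cultures and at 1.84, 1.79 and 1.84 in controls, a change of -0.72 ± 0.12 (adjusted p = 0.00428). Kif5a, another conventional heavy chain, stood at 2.49, 2.86 and 2.74 in pre-miR-16 cultures and at 3.36, 3.40 and 3.29 in controls, a change of -0.66 ± 0.12 (adjusted p = 0.00573). Kif16b, which positions endosomes, stood at -1.19, -1.38 and -1.06 in pre-miR-16 cultures and at -0.86, -0.72 and -0.53 in controls, a change of -0.50 ± 0.13 (adjusted p = 0.0219).

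Scaled on spike-ins, Kif13b still fell (-1.10), while Kif3a (-0.34), Kif5a (-0.27) and Kif16b (-0.12) were not called. The 7 that were not called lay between -0.42 (Kif13a) and 0.29 (Kif3c), and Kif5b, the widely expressed conventional heavy chain, differed by -0.067 ± 0.13. Kif17 was not tested: of its 3 probes 2 cleared background on 1 control array each and none on a pre-miR-16 array.

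**Figure D4:**
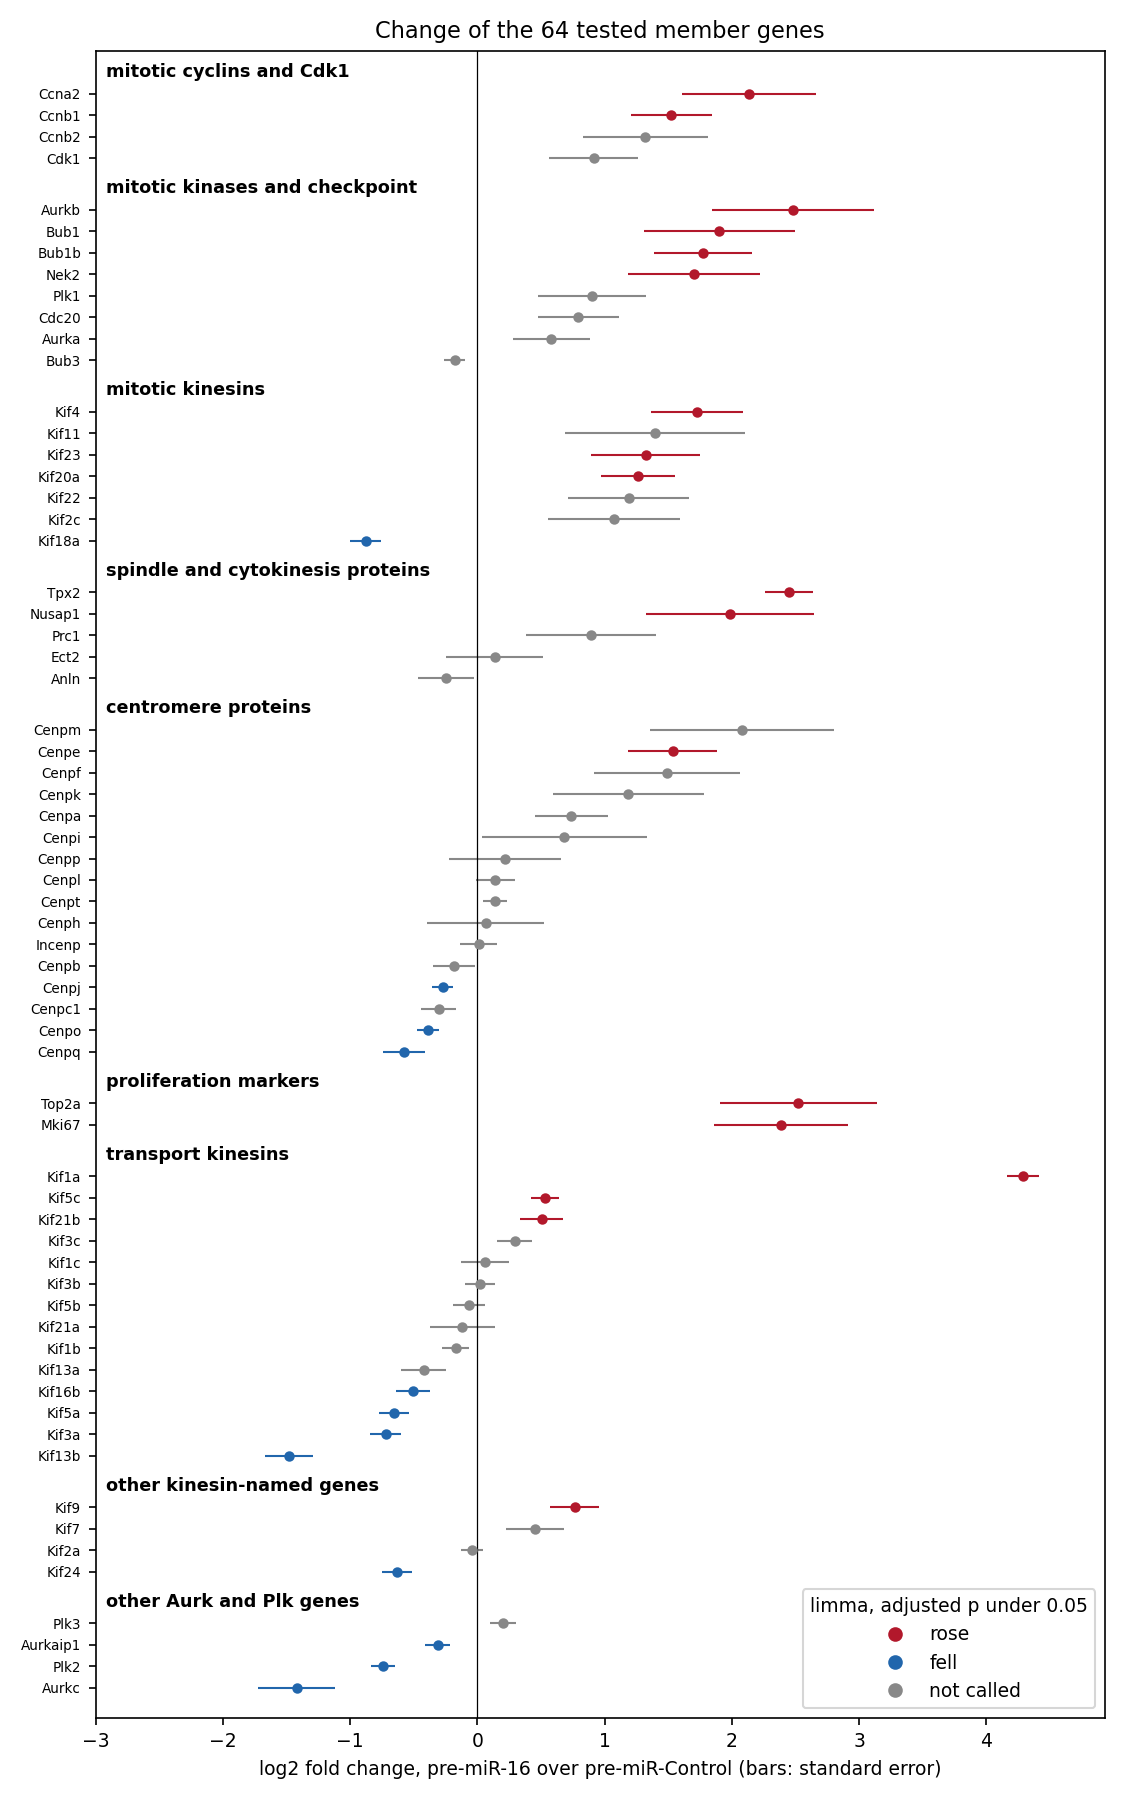
Log2 fold change, pre-miR-16 over pre-miR-Control, with its standard error for the 64 tested genes, by class and coloured by call. Changes of mitotic genes run from -0.88 (Kif18a) to 2.52 (Top2a), and Kif1a at 4.29 lies beyond all of them.

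Among 4 further kinesin-named genes Kif9, of motile cilia, stood at -3.35, -3.22 and -3.00 in pre-miR-16 cultures and at -3.59, -4.01 and -4.26 in controls and rose by 0.77 ± 0.19 (adjusted p = 0.0186), or 0.23 and not called under normexp (adjusted p = 0.105). Kif24, which restrains cilium formation, stood at -1.62, -1.43 and -1.56 in pre-miR-16 cultures and at -0.80, -0.83 and -1.10 in controls and changed by -0.63 ± 0.12 (adjusted p = 0.00643), but was not called on spike-in scaling (-0.25). Kif7, of Hedgehog signalling, stood at -4.16, -3.61 and -4.39 in pre-miR-16 cultures and at -4.37, -4.37 and -4.78 in controls. Kif2a, a microtubule depolymerase, stood at -0.16, -0.15 and -0.26 in pre-miR-16 cultures and at -0.13, -0.20 and -0.12 in controls. The groups overlapped in both genes, and neither difference (0.45 ± 0.23 for Kif7, -0.042 ± 0.085 for Kif2a) was called. Kif12, Kif27 and Kif2b were not tested.

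Of the 4 other genes with Aurk or Plk names, placed outside the mitotic classes, 3 fell (75%, against 33.1% of all genes). Plk2, a stress- and activity-induced Polo kinase, stood at 4.05, 3.82 and 3.97 in pre-miR-16 cultures and at 4.68, 4.68 and 4.71 in controls, a change of -0.74 ± 0.095 (adjusted p = 0.00162). Aurkc, the Aurora kinase of meiosis, stood at -4.06, -3.11 and -3.51 in pre-miR-16 cultures and at -1.83, -1.99 and -2.61 in controls, a change of -1.42 ± 0.30 (adjusted p = 0.01002). Aurkaip1, an Aurora A binding protein, stood at 5.35, 5.09 and 5.18 in pre-miR-16 cultures and at 5.50, 5.53 and 5.53 in controls, a change of -0.31 ± 0.10 (adjusted p = 0.0404). Plk3, a stress-response Polo kinase, stood at 2.09, 1.93 and 2.19 in pre-miR-16 cultures and at 1.80, 1.87 and 1.92 in controls, and differed by 0.20 ± 0.10 (adjusted p = 0.145). In the 3 that fell every pre-miR-16 culture lay below every control. On spike-in scaling Aurkc still fell (-1.04), while Plk2 (-0.36) and Aurkaip1 (0.071, turned positive) were not called.

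At the level of probes, 93 of 134 passed the filter, of which 28 rose, against 15.2% of all probes, and 15 fell, against 31.3%. In 23 genes with more than 1 passing probe the sign agreed in 15 and split in 8, and no gene had probes called in both directions. A second Ect2 probe, dim in every pre-miR-16 culture, fell by 2.75 while the brightest differed by 0.14. Because of that dimness the size of its fall is uncertain. Kif1b, a transporter of mitochondria and vesicles, gave -0.17 at its brightest probe, whereas 2 probes of another transcript rose by 1.72 and 0.61. For Bub3 a dim probe to a cDNA fell by 0.90.

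Other genes of G2/M and mitosis, from a list that excludes the members, were read beside them, and 44 of 50 were tested. Of these 11 rose (25.0%, against 15.95% of all genes) and 1 fell (2.27%, against 33.1%). The 11 include Gtse1, Espl1 and Spc24, which were not above background on any control. They entered the test through the pre-miR-16 arrays alone, so the share risen depends in part on the filter. Their median change was 0.72, against -0.20 over all genes. Those given below with their changes are the 6 with the smallest p. Psrc1, a spindle protein, stood at 1.68, 1.76 and 1.56 in pre-miR-16 cultures and at -1.45, -1.48 and -1.61 in controls, a change of 3.18 ± 0.10 (adjusted p = 1.19e-05). Gtse1, which stabilises spindle microtubules, and Espl1, the protease separase that cuts cohesin, were not above background on any control. Both passed the filter through the pre-miR-16 arrays alone, and their rises are given as at least 5.41-fold and 4.90-fold in the main fit. Gtse1 stood at -2.81, -3.01 and -2.88 in pre-miR-16 cultures and at -6.62, -5.62 and -6.01 in controls, and Espl1 at -2.79, -3.34 and -2.91 in pre-miR-16 cultures and at -5.35, -5.62 and -6.36 in controls. In these 3 genes replicate 2 lay far nearer to replicates 1 and 3 than to any control. Ckap2 rose by 1.40 ± 0.28 and Spc25, a kinetochore subunit, by 1.35 ± 0.30 (adjusted p = 0.00846 and 0.0112), and Cit, the citron kinase of cytokinesis, changed by -0.60 ± 0.11 (adjusted p = 0.00695). Replicate 2 was the lowest pre-miR-16 array for 37 of the 44, against 40.7% of all genes.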

How the data were processed

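Total RNA of 6 cultures was labelled with Cy3 and hybridised to 1 single-colour Agilent array each. The deposited scanner files hold spot intensity values that Agilent Feature Extraction had background-subtracted and detrended within the array, per the file headers, with no scaling between arrays. The deposited series matrix holds log2 values of the same arrays, used as an alternative; their columns have medians of 6.79 to 6.81, and how they were centred is not stated.

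Control spots and outlier-flagged spots (74 to 113 per array) were left out, spots of a probe were averaged on the log2 scale, and each array's 75th percentile over 43379 spots was subtracted. Probes were kept (23827) where a share of at least 0.5 of their spots cleared background on each of the 3 arrays of a group, and a gene took its brightest kept probe. The comparison used limma 3.58.1 (lmFit, eBayes) in R 4.3.3, with Benjamini-Hochberg adjustment over 16702 genes; the code was tested on simulated data. The p-values measure the spread between these cultures. Bound folds use the floor described with Aurkb and hold for the background treatment of the main fit.

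Values per culture are given for 14 core genes whatever they did, for the 4 genes of smallest p in each other class, and for every member that fell; Ttk is given by its detection. The members and lists were chosen with earlier results of these data known. Alternatives covered scaling, background, filter, moderation, array weights, slide, replicate number, threshold, probe choice and each array left out.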

Additional observations from a re-analysis of the deposited data

How the results depend on the processing

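Of the 64 tested members, 18 rose and 12 fell. Rises numbered 31 with spike-in scaling, 34 with array weights, 11 with no filter on dim probes and 5 at an adjusted p under 0.01. With probes above background on all 6 arrays, 13 of 39 mitotic genes rose and 4 fell. Falls numbered 2 with spike-in scaling, 7 with slide as a block and 6 at an adjusted p under 0.01. With an array left out, rises ranged between 10 and 35 (35 without pre-miR-16 replicate 2), falls between 7 and 12, and called probes between 24 (without pre-miR-Control replicate 3) and 63, against 43 with all arrays. With no filter 27 probes were called, as more dim probes were tested. Scaled on spike-ins, Cenpj (0.11) and Aurkaip1 (0.071) reversed. Kif1a, Kif13b, Tpx2, Kif4 and Ccnb1 were called under all 21 alternatives. The cause of the other differences was not tested. Replicate numbers were not fitted in the main comparison. The correlations of same-numbered deviations were -0.088, -0.026 and -0.0028. With pre-miR-16 replicates 1 and 2 exchanged, replicate 2 gave 0.063 with control 1 and replicate 1 gave 0.022 with control 2. These values cannot settle whether the samples were paired, because the replicate numbers are uncertain and the slides differ. With the replicate block, 17 members rose, 9 fell and 36 probes were called, and with pre-miR-16 replicates 1 and 2 exchanged in the block 13 rose and 10 fell. Dim members such as Aurkb, Kif11 and Cenpm have controls at or near background, which limits their fold changes.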

Other observations

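Several genes of the same families carry older names in the array annotation and so lie outside the set; they were found through their current symbols after values had been seen, and are given as values only. Of 9 such genes 3 rose, against 15.95% of all genes. Ncaph, a condensin subunit listed as Brrn1, stood at -1.82, -3.57 and -1.87 in pre-miR-16 cultures and at -3.88, -4.50 and -4.57 in controls, a limma change of 1.90 ± 0.50 (adjusted p = 0.0217). Kif18b, a microtubule depolymerase listed as 3000004C01Rik, stood at -2.80, -4.97 and -2.69 in pre-miR-16 cultures and at -5.22, -5.21 and -5.55 in controls, 1 of 3 controls being well above background (1.84 ± 0.61, limma adjusted p = 0.0454). Cenpx, listed as Stra13, stood at 0.40, 0.065 and 0.38 in pre-miR-16 cultures and at -0.32, -0.39 and -0.48 in controls (0.68 ± 0.12, limma adjusted p = 0.00559). Cenpn, Cenps, Cenpu, Ncapd2, Ncapd3 and Ncapg2 were not called. Pre-miR-16 replicate 2 was the lowest pre-miR-16 array for all 9 genes, against 40.7% of all genes tested.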
